A study of Mus musculus with 2 samples.

Results

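Notch signalling genes were described in RNA bound to tagged ribosomes from the cerebral cortex of adult mice. The 10 genes were chosen by name from the 32531 genes listed in the counts: the receptors Notch1, Notch2, Notch3 and Notch4, the ligands Jag1, Jag2 and Dll4, and the target genes Hey1, Hey2 and Heyl. The mice carried the Gdnf-EGFP/Rpl10a transgene (line ES2243), in which a green fluorescent ribosomal protein follows the regulatory sequences of Gdnf, a neurotrophic factor gene, and they were untreated. Polysomes were captured from cortex homogenate with antibodies against the tag (translating ribosome affinity purification), and the design text names pericytes as the profiled cells. There was 1 group of 2 purified libraries, IP1 and IP2, both from this line. Separate animals or pools are not named in the labels, so the difference between libraries may be purely technical. No unpurified cortex was analysed here, so the values are levels in the purified RNA and not enrichments.

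Notch receptors are single-pass membrane proteins that bind ligands of the Jagged and Delta-like families on a neighbouring cell. Binding exposes the receptor to ADAM proteases and then to gamma-secretase, and the freed intracellular domain enters the nucleus, joins the DNA-binding protein RBPJ and a Mastermind coactivator, and switches on repressor genes of the Hes and Hey families. In brain vessels, Notch3 is the receptor for which mural cells (pericytes and vascular smooth muscle) are best known, and Jag1, Dll4 and Notch4 are associated with endothelium.

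RBPJ recognises the letters GTGGGAA, and closely spaced pairs of these in opposite orientation are known from Hes promoters. RefSeq promoter windows of assembly GRCm38.p6 run from 250 bases before to 50 bases after an annotated start of a gene. They were at hand for 8 of the 10 members, and for neither Hey1 nor Heyl. The Jag2 window (112929446 to 112929745, minus strand) lay inside the span of the gene, which ends at 112929812. The sequence upstream of that end was thus not searched. The windows of Notch3 and Notch4 were offset by a few bases from the ends of their spans. Both strands were searched. The core TGGGAA, which lies inside the longer motif and appears in capitals as TTCCCA where it is on the opposite strand, was present in 25.6% of all 32851 windows, and the longer motif in 6.38%. Only 33 windows (0.10%) held the longer motif in both orientations. Hey2 was one of these 33, and Hes5, a target gene outside the members, was another. The upstream parts of both windows are shown to set out these matches, and that of Notch3, the member whose level differed most between the libraries among those at or above 10 counts per 1000000 (CPM), is shown beside them. Letters of the core are in capitals, and each sequence reads from 5′ to 3′ on the strand of its gene.
Hey2 (chr10:30842784-30843033, minus strand): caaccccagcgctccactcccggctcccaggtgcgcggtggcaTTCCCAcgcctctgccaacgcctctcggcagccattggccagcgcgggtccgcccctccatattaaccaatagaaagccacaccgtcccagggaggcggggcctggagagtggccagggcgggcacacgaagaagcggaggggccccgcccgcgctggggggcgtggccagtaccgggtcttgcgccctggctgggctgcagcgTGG
Hes5 (chr4:154960673-154960922, plus strand): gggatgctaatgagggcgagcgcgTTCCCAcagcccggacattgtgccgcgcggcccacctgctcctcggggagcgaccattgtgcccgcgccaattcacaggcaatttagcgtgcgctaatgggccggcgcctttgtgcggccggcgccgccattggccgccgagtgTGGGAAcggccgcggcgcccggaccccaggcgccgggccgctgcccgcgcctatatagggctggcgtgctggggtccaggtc
Notch3 (chr17:32166891-32167140, minus strand): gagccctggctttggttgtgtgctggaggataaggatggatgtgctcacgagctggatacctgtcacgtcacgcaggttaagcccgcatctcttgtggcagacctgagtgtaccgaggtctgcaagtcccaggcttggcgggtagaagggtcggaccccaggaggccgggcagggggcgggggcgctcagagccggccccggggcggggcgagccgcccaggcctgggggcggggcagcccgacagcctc

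In Hey2 the core began at -207 on the opposite strand and at -3 on the gene's strand, counted from the start site. The last match runs across the start, so that only its opening letters stand at the end of the printed run. The 30 bases around it show it whole.
Hey2 start site: tgggctgcagcgTGGGAAagaacctccagg
In Hes5 the core began at -226 on the opposite strand and at -82 on the gene's strand. The matches began 204 bases apart in Hey2 and 144 bases apart in Hes5, so they are separate matches and not a closely spaced pair. No window of Notch1, Notch2, Notch3, Notch4, Jag1, Jag2 or Dll4 held the core. Nor did that of Nrarp, a target gene outside the members, and no window was at hand for Hes1. This says only that these letters are not in the windows searched. The matches are letters in a sequence and were not measured as binding sites.

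The libraries held 65200231 (IP1) and 72732502 (IP2) reads counted in genes, and levels are in CPM on these totals. CPM is not corrected for transcript length, and no transcript lengths were used here, so the members were not ranked against each other by expression. Each was compared with itself between the libraries, which length does not touch. Shares and ratios of reads between members are given as reads and rank no gene. Of the 10 members, 7 were at 10 CPM or more in both libraries, against 28.3% of all listed genes, and 8 were at 1 CPM or more, against 41.3%. All 11 mural markers outside the members reached 10 CPM in both libraries (67.8 to 4841 CPM), as did all 7 arterial smooth muscle markers. So did all 6 pan-neuronal, all 8 oligodendrocyte precursor, all 7 oligodendrocyte, all 7 perivascular fibroblast and 7 of 8 astrocyte markers, so the source cells of a member's reads cannot be told apart. Likewise, fewer cells of a type and less RNA per cell cannot be told apart in these libraries.

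Among the receptors, Notch3 (chromosome 17, 32120820 to 32166896) had 3893 reads in IP1 and 10455 in IP2, which is 59.7 and 144 CPM, or 102 ± 59.4 CPM (SD, n = 2). IP2 was 2.41-fold above IP1, with an exact 95% interval of 2.32 to 2.498 that covers counting error only. Of 9656 genes averaging 10 CPM or more, 27 (0.28%) had a ratio this far towards IP2.

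Notch2 (chromosome 3, 98013538 to 98150367), a receptor used by many tissues, was at 27.4 CPM in IP1 against 47.7 CPM in IP2 (37.5 ± 14.4 CPM, SD, n = 2). Notch1 (chromosome 2, 26457902 to 26503822), a receptor of neural progenitors and endothelium among many other cells, was at 27.3 CPM in IP1 against 42.9 CPM in IP2 (35.1 ± 11.1 CPM, SD, n = 2). Both were higher in IP2, by 1.74-fold (exact 95% interval 1.65 to 1.85) for Notch2 and 1.57-fold (1.48 to 1.67) for Notch1. In IP1 their reads were nearly equal in number, at 1784 and 1778.

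Notch4 (chromosome 17, 34564286 to 34588543), the receptor tied to endothelium, was the only one below 10 CPM, with 6.03 CPM in IP1 against 3.59 CPM in IP2 from 393 and 261 reads. It ran the other way, 1.68-fold higher in IP1 (exact 95% interval 1.43 to 1.97). The reads of the 4 receptors together came to 7848 in IP1 and 17307 in IP2, or 120 and 238 CPM.

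**Figure D1:**
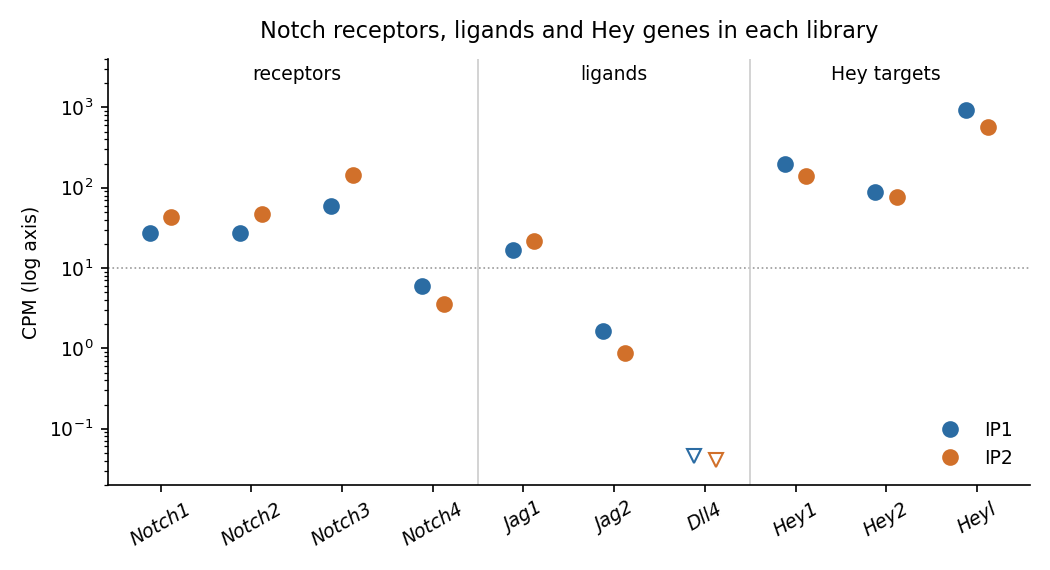
Level of each gene in CPM on a log axis, in IP1 (blue) and IP2 (orange), with a dotted line at 10 CPM and open triangles where a library held 3 counts or fewer, drawn at the level of 3 counts. Notch1, Notch2, Notch3 and Jag1 were higher in IP2, the other genes with reads in both libraries were higher in IP1, and Dll4 had 0 and 2 reads.

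Within the receptor reads, the make-up differed between the libraries. Notch3 held 49.6% of them in IP1 (exact 95% interval 48.5 to 50.7%) against 60.4% in IP2 (59.7 to 61.1%), a mean of 55.0 ± 7.64% (SD, n = 2). Notch2 held 22.7% in IP1 and 20.05% in IP2, and Notch1 22.7% in IP1 and 18.0% in IP2. Notch4 went from 5.01% in IP1 (4.54 to 5.51%) to 1.51% in IP2 (1.33 to 1.70%). Transcript length enters each of these shares and the size of their difference. The change in the ratio of 2 genes is free of it, and Notch3 was counted 2.19 times for each Notch1 read in IP1 and 3.35 times in IP2, a 1.53-fold difference.

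Of the ligands, Jag1 (chromosome 2, 137081451 to 137116520), which encodes the membrane ligand Jagged-1, was the only one at 10 CPM. It had 1082 reads in IP1 and 1571 in IP2, or 16.6 and 21.6 CPM (19.1 ± 3.54 CPM, SD, n = 2). IP2 was 1.30-fold above IP1 (exact 95% interval 1.20 to 1.41), which is under the 1.5-fold used here to call the libraries apart.

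Jag2 (chromosome 12, 112907803 to 112929812), the second Jagged ligand, was scarce, with 1.66 CPM in IP1 from 108 reads and 0.87 CPM in IP2 from 63 reads. It was 1.91-fold higher in IP1, and the exact 95% interval of 1.39 to 2.65 was wide at this depth. Dll4 (chromosome 2, 119325784 to 119335666), a Delta-like ligand of vessel sprouting, had 0 reads in IP1 and 2 in IP2. Both lie under the limit that a count of 0 allows, 3 counts, or 0.046 CPM in IP1 against 0.041 CPM in IP2. The start of Dll4 overlaps the annotated noncoding gene Gm14207, and reads that match several genes were not assigned, so this limit does not cover such reads.

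Jag1 held 90.9% of the ligand reads in IP1 (exact 95% interval 89.1 to 92.5%) against 96.0% in IP2 (94.96 to 96.9%), or 93.5 ± 3.61% (SD, n = 2). Of the Delta-like ligands outside the members, Dll1 was at 6.55 CPM in IP1 against 9.68 CPM in IP2, and Dll3, which acts inside the cell on Notch, was under 1 CPM in both.

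Markers of endothelial cells, the neighbours in which Dll4 and Notch4 are commonly found, had few reads. Of 12 endothelial markers, 2 reached 10 CPM in both libraries, and their summed level was 121 CPM in IP1 against 116 CPM in IP2, within a range of 0 to 42.1 CPM for single genes. The sums were carried by Emcn and Eng, both lower in IP2, while most of the list lay on the other side. Of 11 endothelial markers with reads in both libraries, 6 were at least 1.5-fold higher in IP2, Cdh5 (log2 ratio 0.69) among them, and 1 in IP1. Over all genes with 10 or more reads and reads in both libraries, the shares were 13.3% and 16.4%. Some of the 6 had few reads, Pecam1 among them. The median log2 ratio of the 11 markers was 0.68. Notch1 was on the same side as this median, and Notch4 on the opposite side. The tight junction gene Cldn5 had 5 reads in IP1 and 0 in IP2, and Pecam1 had 12 and 36. Of 6 arterial endothelial markers, 2 (Efnb2 and Mgp) reached 10 CPM in both, and Gja5 had 11 reads in IP1 and 0 in IP2. The part of endothelial RNA in the reads of Notch1, Notch4 and Jag1 was not tested.

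The Hey genes encode basic helix-loop-helix repressors that are switched on by Notch. Heyl (chromosome 4, 123233556 to 123249870), the member of this family most used as a mural marker, had 59993 reads in IP1 and 41226 in IP2. This was 920 and 567 CPM, or 743 ± 249.8 CPM (SD, n = 2), and IP1 was 1.62-fold above IP2 (exact 95% interval 1.60 to 1.64). Of the 9656 genes averaging 10 CPM or more, 231 (2.39%) had a ratio this far towards IP1.

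Hey1 (chromosome 3, 8663359 to 8667038) was at 195 CPM in IP1 against 141 CPM in IP2 (168 ± 38.2 CPM, SD, n = 2), 1.38-fold higher in IP1 (exact 95% interval 1.35 to 1.42). Hey2 (chromosome 10, 30832359 to 30842783), known for its part in arterial and cardiac development, was at 89.3 CPM in IP1 against 77.4 CPM in IP2 (83.3 ± 8.42 CPM, SD, n = 2), 1.15-fold higher in IP1 (1.11 to 1.20). All 3 Hey genes were thus higher in IP1, but only Heyl by at least 1.5-fold.

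Heyl held 76.4% of the Hey reads in IP1 (exact 95% interval 76.1 to 76.7%) against 72.2% in IP2 (71.8 to 72.6%), or 74.3 ± 2.98% (SD, n = 2). Hey1 held 16.2% in IP1 and 18.0% in IP2, and Hey2 7.41% in IP1 and 9.86% in IP2. In percentage points of the gene with the most reads, the Hey reads moved less between the libraries than the receptor reads. Transcript length enters both, however. Among pairs without Notch4, ratios of 2 genes, whose change is free of it, gave no clear order of the families. They differed 1.41-fold for Heyl to Hey2 and 1.17-fold for Heyl to Hey1. For Notch3 to Notch1 the difference was 1.53-fold, and for Notch3 to Notch2 it was 1.38-fold. Notch4 was on the IP1 side (log2 ratio -0.75) and Notch3 on the IP2 side (1.27), so that pair differed by more than any Hey pair.

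**Figure D2:**
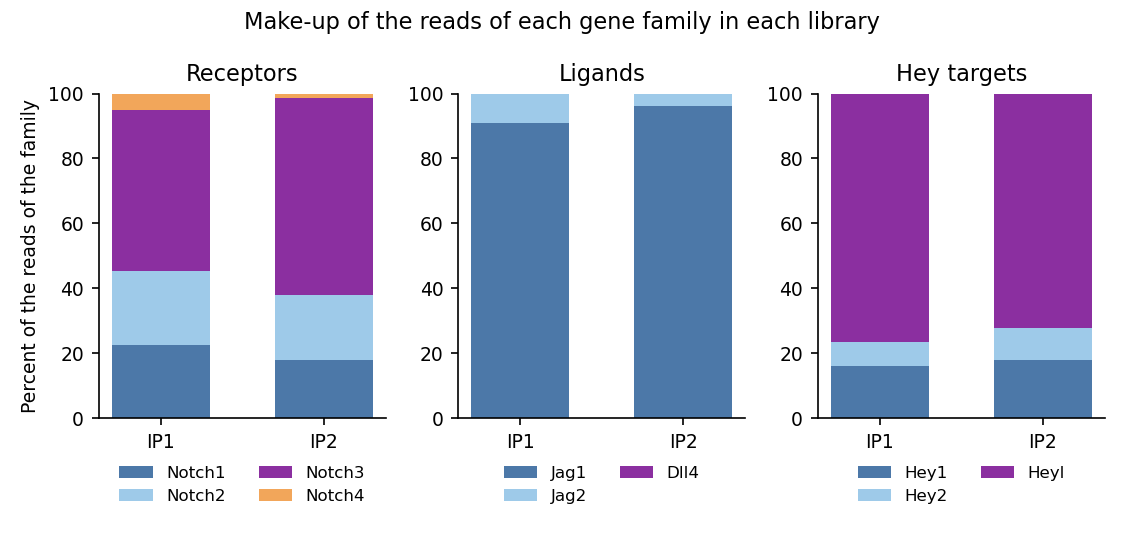
Percent of the reads of each family held by each gene in IP1 and IP2, with the receptors on the left, the ligands in the middle and the Hey genes on the right. Notch3 went from 49.6% in IP1 to 60.4% in IP2 of the receptor reads, while Jag1 and Heyl held most of the reads of their families in both libraries.

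Notch1, Notch2 and Notch3 on the one hand and the Hey genes on the other differed between the libraries in opposite directions. Of the 9 members with 10 or more reads in total, 3 (Notch1, Notch2 and Notch3) were at least 1.5-fold higher in IP2, against 13.8% of the 17306 genes with that many reads, and 3 (Notch4, Jag2 and Heyl) were at least 1.5-fold higher in IP1, against 18.2%. Of the 7 members averaging 10 CPM or more, 3 were higher in IP2, against 6.57% of such genes, and 1 was higher in IP1, against 4.42%. At 2-fold, Notch3 alone differed, against 18.7% of the 17306 genes in either direction. The log2 ratio of IP2 over IP1 had a median of 0.73 over the 4 receptors and -0.47 over the 3 Hey genes, beside -0.03 over all 9656 genes averaging 10 CPM or more. For each Notch3 read there were 15.4 Heyl reads in IP1 and 3.94 in IP2, a 3.91-fold difference between libraries of 1 group. For Hey1 and Notch3 the same ratio was 3.27 in IP1 and 0.98 in IP2.

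**Figure D3:**
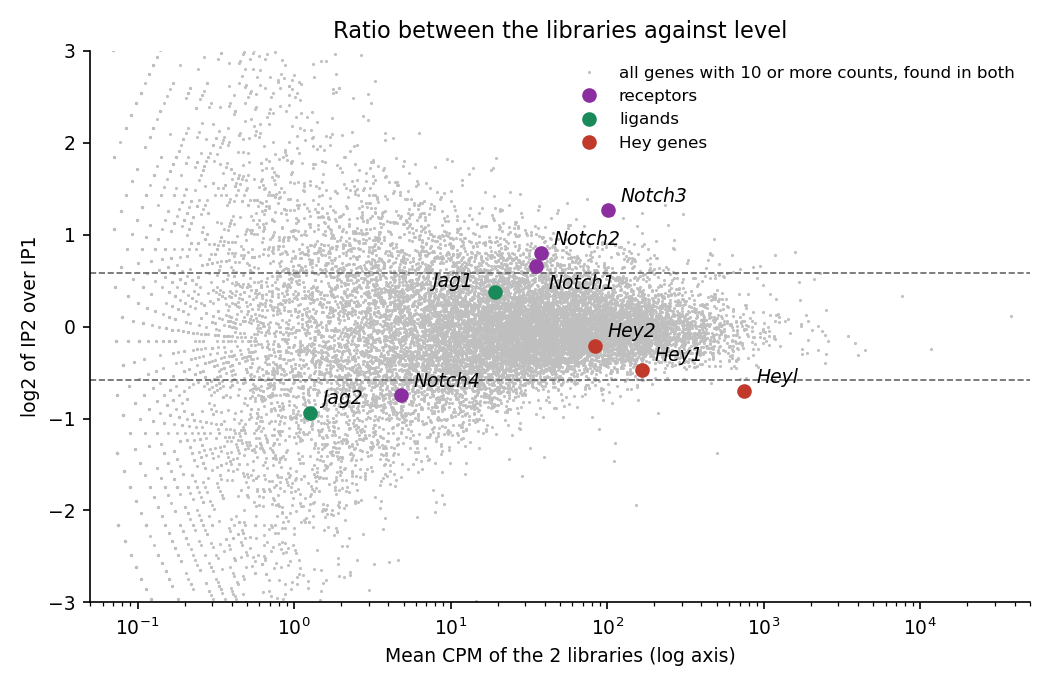
Log2 of IP2 over IP1 against mean CPM (log axis) for genes with 10 or more reads and reads in both libraries (grey points, those beyond 3 on the vertical axis not drawn), with the members named and dashed lines at 1.5-fold. Notch3, at 1.27, lies at the upper edge of the grey points at its level, and Heyl, at -0.70, at the lower edge.

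Ratios of other genes are given beside these. Among the 11 mural markers, the 7 that were higher in IP2 all encode membrane or secreted proteins, with log2 ratios of 0.92 for the proteoglycan gene Cspg4, 0.79 for the channel subunit gene Abcc9, 0.66 for the peptidase gene Anpep and 0.28 for the receptor gene Pdgfrb. The transcription factor genes Tbx18 (-0.44) and Foxf2 (-0.39) were higher in IP1, as were Rgs5, a regulator of G protein signalling (-0.25), and Higd1b (-0.55). Membrane protein genes were found on both sides. Among the members, Notch4 (-0.75) and Jag2 (-0.94) were on the IP1 side, and Notch1, Notch2, Notch3 and Jag1 on the IP2 side. The whole mural list had a median log2 ratio of 0.56. Its summed level was 6689 CPM in IP1 against 6489 CPM in IP2, but Rgs5 made up most of it, and without Rgs5 the sums were 1848 and 2428 CPM. Astrocyte markers, with a summed level of 1896 CPM in IP1 against 2943 CPM in IP2, and oligodendrocyte precursor markers, with 2460 and 3183 CPM, were higher in IP2 as well. Slc1a2 alone, at 1158 and 2028 CPM, made up most of the astrocyte sum. Of the 8 astrocyte markers, 4 were at least 1.5-fold higher in IP2, and Aldoc (-0.08) was on the IP1 side. Among all genes averaging 10 CPM or more, 6.57% were at least 1.5-fold higher in IP2. All 7 markers of perivascular fibroblasts, another cell type of the vessel wall, were higher in IP2, 3 of them by at least 1.5-fold. They had 3191 and 4637 CPM in sum and a median log2 ratio of 0.51. Pdgfra, at 326 CPM in IP1 against 632 CPM in IP2, is 1 of these 3. It stands in the precursor list too, so its reads are in both sums. In the astrocyte and precursor lists the ratios farthest towards IP2 were those of membrane protein genes, at 1.32 (log2) for Ptprz1 and 1.11 for Aqp4, while the transcription factor genes Olig1 and Olig2 were both at -0.11 and Sox10 was at 0.06.

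Wide classes of symbols were also compared, which were picked after the ratios had been seen and are given as values only. Of 140 solute carrier genes (Slc) averaging 10 CPM or more, 29 were at least 1.5-fold higher in IP2 and 2 in IP1, with a median log2 ratio of 0.20. Of 110 transmembrane protein genes (Tmem) the counts were 21 and 5, with a median of 0.19. Of 236 zinc finger genes (Zfp), 5 were higher in IP2 and 24 in IP1, with a median of -0.10, and of 35 Fox, Sox and Tbx genes the counts were 0 and 1. The median of these 35 was -0.03, the same as over all 9656 such genes, of which 634 were higher in IP2 and 427 in IP1, so this class showed no shift. The part of these shifts in the ratios of the Notch and Hey genes was not tested.

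Of 74 other genes of the pathway, 52 (70.3%) were at 10 CPM or more in both libraries, against 28.3% of all listed genes, and 67 at 1 CPM or more. Hes2 had no read. Between the libraries, 72 had 10 or more reads in total and reads in both. Of these, 11 (15.3%) were at least 1.5-fold higher in IP2, near the 13.3% of all genes so selected. There were 3 (4.17%) at least 1.5-fold higher in IP1, against 16.4% of all genes so selected. Among genes averaging 10 CPM or more, where most of the list lies, the shares were 6.57% towards IP2 and 4.42% towards IP1. The share towards IP1 was thus near that of genes at a similar level. The share towards IP2 was above the 6.57%, but some of its 11 genes averaged less than 10 CPM. The median log2 ratio of the 72 genes was 0.05, so the middle of the list showed little shift.

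Among the proteases, 9 of 10 genes were on the IP2 side, with a median log2 ratio of 0.54. Of these, 3 were at least 1.5-fold higher, against 13.3% of all genes with 10 or more reads and reads in both libraries. Adam10, the sheddase that makes the outer cut in the receptor, was at 31.1 CPM in IP1 against 46.5 CPM in IP2. At 1.496-fold, Adam10 was just under the 1.5-fold line. Ncstn, the substrate-docking subunit gene of gamma-secretase, was at 20.5 and 32.5 CPM. Of the non-canonical ligands, 7 of 8 were on the IP2 side, 6 by at least 1.5-fold, against the same 13.3%. Of those 6, only the contactin gene Cntn1 was at 10 CPM or more in both libraries, at 330 CPM in IP1 against 547 CPM in IP2. Dner, at 46.2 and 67.2 CPM, was 1.46-fold higher in IP2 and so under the line. Cntn1 and Dner are known from neurons. The 5 enzymes that add sugars to Notch were all within 1.5-fold, and the highest, Poglut1, was at 31.6 and 35.3 CPM.

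In the nucleus, all 9 genes of the activating complex were at 10 CPM or more in both libraries, with a median log2 ratio of -0.07. The acetyltransferase genes Crebbp (329 CPM in IP1, 390 CPM in IP2) and Ep300 (238 and 301 CPM) and the Mastermind gene Maml2 (196 and 186 CPM) had the most reads. Rbpj itself was at 27.2 CPM in IP1 against 17.8 CPM in IP2, the only gene of this group at least 1.5-fold higher in IP1 (1.53-fold, exact 95% interval 1.42 to 1.65). All 13 corepressor genes were within 1.5-fold, led by Ncor1 at 334 and 384 CPM. Of the 17 genes of receptor traffic and ubiquitin ligases, 16 were within 1.5-fold, among them the kinase gene Aak1 at 655 and 616 CPM and the endocytic adaptor gene Epn2 at 503 and 452 CPM. The exception was the ubiquitin ligase gene Neurl1b, at 33.2 CPM in IP1 against 57.1 CPM in IP2.

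Target genes outside the Hey family did not all follow it. Hes1, a repressor gene and direct Notch target in many tissues, was at 48.3 CPM in IP1 against 26.2 CPM in IP2, 1.84-fold higher in IP1 (exact 95% interval 1.74 to 1.95). Nrarp, which encodes a feedback inhibitor that binds the Notch intracellular domain, was at 127 and 77.5 CPM, 1.63-fold higher in IP1 (1.58 to 1.69). Hes5, the target best known from neural progenitors and like Hey2 a gene whose window held the longer motif in both orientations, was at 24.4 CPM in IP1 against 29.9 CPM in IP2, and its log2 ratio of 0.30 had the opposite sign to that of Hey2 (-0.21). Hes6 was at 6.72 and 5.60 CPM, and Hes7 was under 1 CPM in both. Hes3 had 0 reads in IP1 and 27 in IP2 and was at least 8.07-fold higher in IP2, against the limit of 3 counts in IP1. Bhlhe40 (259 and 228 CPM) and Bhlhe41 (233 and 221 CPM), which also answer to many other signals, differed little.

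**Figure D4:**
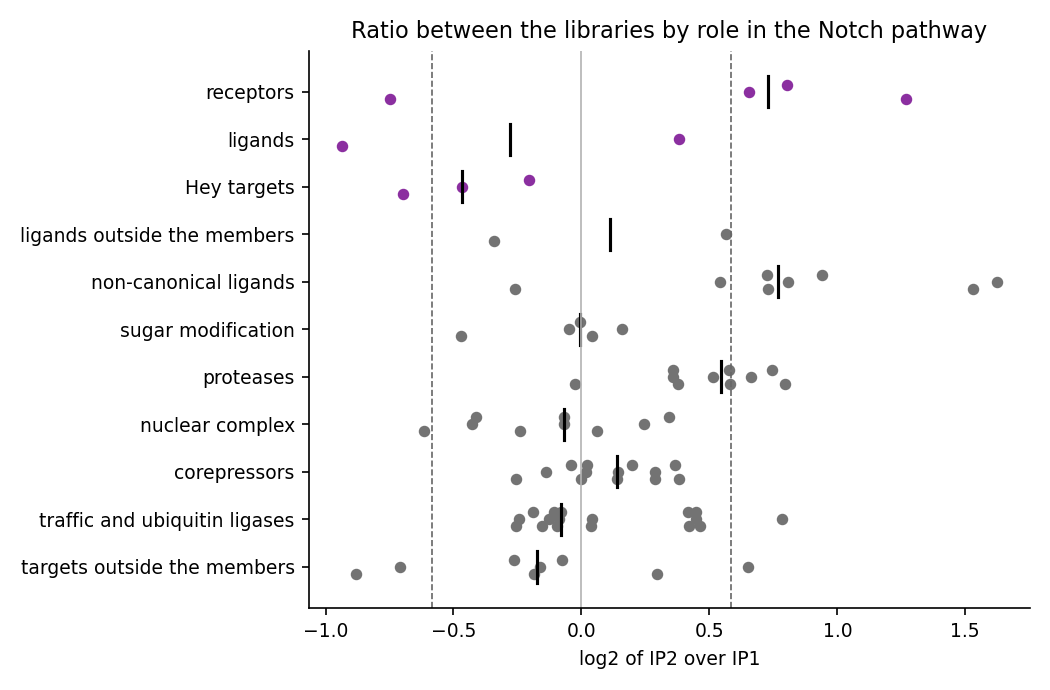
Log2 of IP2 over IP1 for each gene with 10 or more reads and reads in both libraries, by role in the pathway, with the members in purple, other genes in grey, black bars at the medians and dashed lines at 1.5-fold. The medians of receptors (0.73), non-canonical ligands (0.77) and proteases (0.54) lie on the IP2 side, and those of the Hey genes (-0.47) and the other targets (-0.17) on the IP1 side.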

How the data were processed

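The 2 libraries formed 1 group. Reads were aligned with STAR 2.0.0e to mm10 and counted with HTSeq, per the submitters' processing notes. For the annotation and the strand setting, no source used here gives a value. The deposited files hold raw counts per gene symbol. Summary lines and a row named unknown (1 read in IP1, 0 in IP2) were left out of totals. Reads in genes were 58.1% (IP1) and 57.7% (IP2) of all listed reads, and 31.2% and 31.5% aligned to several places and were not assigned. The spans of 7 of the 10 members overlap another RefSeq gene (GRCm38.p6, the assembly of mm10), so some of their reads may be unassigned or belong to the neighbour.

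CPM used the total of gene counts. With 1 group no test was made and no p-value is given. Libraries were called apart at a ratio of 1.5-fold among genes with 10 or more counts in total. Intervals are exact (Clopper-Pearson), and intervals and floors (3 counts) cover counting error only, since reads are not independent molecules. The calculation of ratios and intervals was also run on simulated counts that held counting error only. It therefore cannot show how the intervals fare with spread between replicates. The changed genes in it all had more reads than Jag2. Alternatives used TMM sizes (edgeR 4.0.16) and DESeq2 1.42.0 size factors in R 4.3.3. Levels, ratios and intervals were computed in Python 3.11.15 with scipy 1.17.1, pandas 2.3.3 and numpy 2.4.6. Shares and an order of genes per length had been planned, and shares of reads are given in their place because no transcript lengths were used.

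Members and gene lists were chosen with earlier results of these data known. Named were all members, the 3 highest genes of each role by mean CPM, genes at 0, all Hes genes, Dll1 and Dll3. A gene that this rule names is not reported here. Rbpj, Neurl1b, the cell type markers named and the symbol classes were chosen after their values were seen.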

Additional observations from a re-analysis of the deposited data

How the results depend on the processing

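The 6 members at least 1.5-fold apart between the libraries (3 in each direction) remained 6 in number under TMM sizes, DESeq2 size factors, totals without the ribosomal RNA precursor Rn45s, no filter on low counts, and ratios taken relative to genes of similar gene span in 20 bins. With only genes of a mean of at least 10 CPM there were 4, since Notch4 and Jag2 lie below that level. At 2-fold there was 1, Notch3, against 18.7% of the 17306 genes in either direction. Median ratios by gene span ran from -0.16 (log2) in the bin of the shortest to 0.04 in that of the longest genes. None of the ratios of the 9 members with 10 or more counts changed sign under these scalings, and that of Notch3 lay between 1.27 and 1.32 (log2). Those of the Hey genes came nearer to 0 relative to genes of similar span, from -0.47 to -0.32 for Hey1, from -0.21 to -0.14 for Hey2 and from -0.70 to -0.60 for Heyl, which is just past 1.5-fold. They also moved beyond their counting intervals, by less, under TMM and DESeq2 sizes. Notch3 narrowly did so under DESeq2 sizes, at 1.323 against an upper limit of 1.321 (log2). The count of 7 members at 10 CPM was 7 under each scaling and in either library alone. For the 74 pathway genes the count of 52 became 53 in IP1 alone and 56 in IP2 alone. In single libraries the share of receptor reads in Notch3 was 49.6 to 60.4%, of ligand reads in Jag1 90.9 to 96.0%, and of Hey reads in Heyl 72.2 to 76.4%. Shares per transcript or coding length were not run. No paired analysis was possible because there is 1 group. With 2 libraries, the spread of each value rests on a single difference, and genes under about 10 CPM have wide counting intervals.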
